A study of Mus musculus with 12 samples.

Results

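Luminal cells of the mammary epithelium were compared between female mice carrying the MMTV-cre/Foxp1(fl/fl) genotype, labelled Foxp1 knockout, and females with Foxp1(fl/fl) alone, labelled control. The comparison took the 6 luminal libraries of the 12 in the study: 3 biological replicates of each genotype, chosen by cell type and genotype label. The other 6 libraries were basal cells of the same 2 genotypes. In both groups compared here Foxp1 is flanked by loxP sites, and only the knockout-labelled animals carry Cre. Cre in that line is driven by the mouse mammary tumour virus promoter, which is active in mammary epithelium and also in other secretory epithelia such as the salivary gland. The samples used here include no group with Cre and an unfloxed Foxp1, so Cre and the loss of Foxp1 cannot be told apart. The sources used here do not give the animals' background strain, age or stage or the sorting of the cells, and the protocol fields name no treatment.

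Foxp1 encodes a forkhead-box transcription factor that mostly represses its target genes. Luminal cells line the ducts and alveoli. They include hormone-sensing cells, which carry the oestrogen, progesterone and prolactin receptors and pass hormone signals on through secreted factors such as RANKL, and progenitors that give rise to the milk-secreting alveolar cells. Basal cells surround them and contract to expel milk.

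The luminal label was checked against markers. The summed level of 8 luminal markers (Krt8, Krt18, Krt19, Epcam, Cldn3, Cldn7, Elf3 and Cd24a) was 9787 to 16246 CPM in the luminal controls, 13984 to 20701 CPM in the knockout-labelled luminal libraries and 1598 to 2991 CPM in the 6 basal libraries. CPM here is a gene's count scaled by its library's total, with TMM factors for composition. The 6 basal markers (Krt5, Krt14, Acta2, Trp63, Myh11 and Oxtr) summed to 116 to 667 CPM in the controls and 304 to 728 CPM in the knockout-labelled luminal libraries, against 13999.7 to 19145 CPM in basal cells. Adipoq, the adipocyte hormone, had no count in any luminal library, and Ptprc, the pan-leukocyte marker, stayed at or below 2.21 CPM. Other non-epithelial transcripts were present. The 4 fibroblast markers (Pdgfra, Dcn, Lum and Col1a1) summed to 34.9 to 204 CPM in controls and 104 to 202 CPM in knockout-labelled luminal libraries. The 3 endothelial markers (Pecam1, Cdh5 and Kdr) summed to 12.6 to 71.8 CPM and 8.78 to 18.2 CPM. The 4 macrophage markers (Ptprc, Csf1r, Cd68 and Lyz2) summed to 12.5 to 26.8 CPM and 13 to 28.7 CPM. Total counts were 9769361 to 10936028 in 5 luminal libraries and 15449513 in knockout replicate 3. Transcripts of a salivary list, led by Bpifa2, took 1.36% to 12.7% of the counts in controls and 2.91% to 11.2% in knockout-labelled libraries, and the ribosomal precursor Rn45s took 3.68% in control replicate 2.

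Foxp1 itself (chr6:98925342-99522746, gene positions here being RefSeq on GRCm38.p6) did not fall. Its level was 82.3, 62 and 78.2 CPM in the controls and 161, 149.8 and 155 CPM in the knockout-labelled libraries. The groups did not overlap, and the knockout-labelled libraries were higher (log2 fold 1.07 ± 0.19 SE, adjusted p = 0.0161, by edgeR's quasi-likelihood test with Benjamini-Hochberg adjustment over all tested genes, as for every adjusted p given). The call was lost on leaving out control 2 (0.0746), knockout 2 (0.0524) or knockout 3 (0.054), while the log2 fold stayed between 0.95 and 1.16 in every such fit. In basal cells Foxp1 had 221, 213 and 160 CPM in controls and 212, 193 and 284 CPM in knockout-labelled libraries. It did not fall there either (log2 fold 0.22 ± 0.19 SE, adjusted p = 0.926). The counts are summed over the whole gene, with exons outside the floxed part included, so they check the label only in part. Since the targeted gene goes against its label at this level, the term knockout-labelled is kept for these libraries, and each direction below rests on the labels. None of the 19 other tested genes within 5 Mb of Foxp1 passed the test. With the replicate number as a block in the fit, Frmd4b among them was higher (log2 fold 0.85 ± 0.16 SE, adjusted p = 0.0141).

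Of 14903 genes with enough counts to test, 451 differed between knockout-labelled and control luminal libraries at an adjusted p under 0.05, which is 3.03% of those tested. There were 329 rises (2.21%) and 122 falls (0.819%). The rises were mostly of genes low in controls: their median mean level went from 3.74 to 24.4 CPM, and 103 of the 329 lay under 1 CPM in controls. The falls went from a median of 22.9 to 7.2 CPM. A change over 4-fold was fitted for 197 of the rises and 39 of the falls. The direction was the same in all 3 same-numbered pairs for each of the 451 genes, and the groups did not overlap for 450 of them. Calls made from these same libraries favour such separation, so neither count is separate support. Over all tested genes 25.4% did not overlap. With the replicate number as a block the count rose to 1097 (7.36%), with 693 higher (4.65%) and 404 lower (2.71%), and 450 of the 451 genes were among them. The count depended on single libraries: it fell to 129 without control replicate 1, to 127 without control replicate 2, to 142 without knockout replicate 2 and to 168 without knockout replicate 3.

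**Figure D1:**
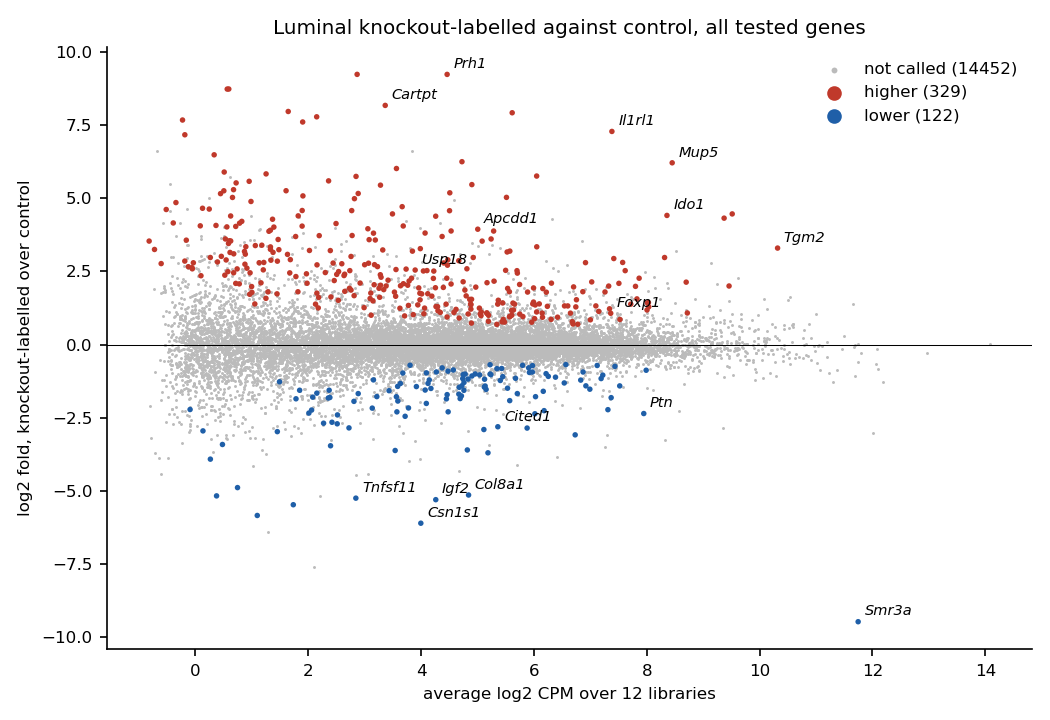
Log2 fold of knockout-labelled over control luminal libraries (vertical axis) against average log2 CPM over the 12 libraries (horizontal axis) for 14903 tested genes; each point is a gene, in red for the 329 called higher, in blue for the 122 called lower and in grey for the rest. The called rises lie mostly at low and middle levels, and Smr3a stands at the lower right with a log2 fold of -9.47.

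The largest falls took in a collagen, caseins and signalling molecules. Col8a1 (chr16:57624256-57754737), an alpha chain of the short-chain collagen VIII, had 143, 80.1 and 86.2 CPM in the controls and 2.39, 3.67 and 2.67 CPM in the knockout-labelled libraries. Every control thus stood far above every knockout-labelled library (log2 fold -5.14 ± 0.29 SE, adjusted p = 1.54e-05). Igf2 (chr7:142650768-142666816), the imprinted insulin-like growth factor, had 108, 59.8 and 17.5 CPM in the controls and 0.598, 1.7 and 2.27 CPM in the knockout-labelled libraries (log2 fold -5.30 ± 0.64 SE, adjusted p = 0.00312). The controls spread widely and the knockout-labelled libraries were all lower. Zfp979, a zinc finger gene, had 8.14, 5.55 and 7.14 CPM in the controls and 0.0997, 0.0895 and 0.133 CPM in the knockout-labelled libraries (log2 fold -5.84 ± 0.58 SE, adjusted p = 0.000812). Rbm24, which encodes an RNA-binding protein, had 5.24, 3.79 and 2.51 CPM in the controls and 0.299, 0.268 and 0.334 CPM in the knockout-labelled libraries (log2 fold -3.62 ± 0.47 SE, adjusted p = 0.00387). Grik3, a kainate-type glutamate receptor subunit, had 7.3, 4.53 and 9.45 CPM in the controls and 0.299, 1.34 and 0.801 CPM in the knockout-labelled libraries (log2 fold -3.09 ± 0.47 SE, adjusted p = 0.00788). For all 5 genes the groups were well apart, and each call held with any 1 luminal library left out.

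Smr3a (chr5:87991555-88008534), a submaxillary gland androgen-regulated gene, had the largest fall of all. Its level was 22927, 2247 and 14683 CPM in the controls and 19.1, 30.8 and 6.41 CPM in the knockout-labelled libraries (log2 fold -9.47 ± 1.18 SE, adjusted p = 0.00321). The controls differed widely among themselves, and even the lowest stood far above the knockout-labelled libraries. Smr3a was also called lower in basal cells (log2 fold -5.89 ± 1.02 SE, adjusted p = 0.0312). Smaller falls among the named genes were those of the sialyltransferase gene St6gal1 (log2 fold -3.60 ± 0.73 SE, adjusted p = 0.0236), the glutamate ligase gene Rimklb (log2 fold -2.98 ± 0.57 SE, adjusted p = 0.019), Fam180a (log2 fold -3.46 ± 0.80 SE, adjusted p = 0.0413) and the cytochrome P450 gene Cyp1b1 (log2 fold -2.85 ± 0.68 SE, adjusted p = 0.0466). With the replicate block Cyp1b1 had an adjusted p = 0.06, and it was the 1 call of the 451 lost under the block. Fibrinogen beta, Fgb, had 150.2, 53.5 and 152 CPM in the controls and 13.9, 11.5 and 22.1 CPM in the knockout-labelled libraries (log2 fold -2.90 ± 0.62 SE, adjusted p = 0.0283). All 3 controls were above the knockout-labelled libraries. Single libraries decided these smaller falls. The call was lost, with the adjusted p then reached in brackets, for St6gal1 without control 1 or 2 or knockout 1, 2 or 3 (0.0578 to 0.11), for Rimklb without control 2 or knockout 2 or 3 (0.0553 to 0.0822) and for Fam180a without control 2 or 3 or knockout 1, 2 or 3 (0.0803 to 0.13). It was also lost for Cyp1b1 without control 1 or 2 or knockout 1 or 2 (0.0849 to 0.174) and for Fgb without control 1 or 3 or knockout 1, 2 or 3 (0.0523 to 0.124).

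**Figure D2:**
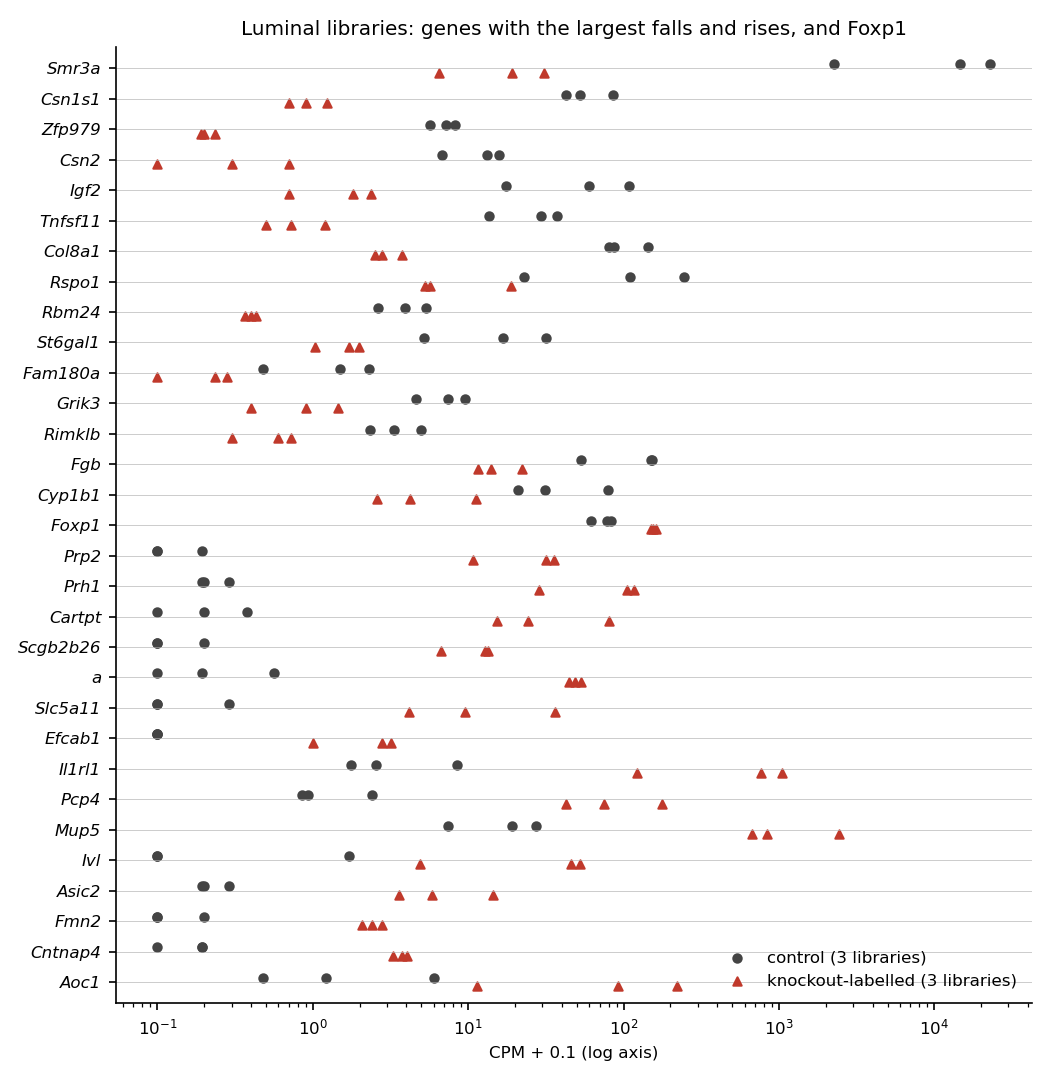
CPM plus 0.1 (log axis) in each luminal library for the 15 named falls (top), Foxp1 and the 15 named rises (bottom); grey circles are the 3 controls and red triangles the 3 knockout-labelled libraries. Circles and triangles do not overlap for any of the 31 genes, which the naming rule required of all but Foxp1. For Foxp1 the triangles, at 150 to 161 CPM, lie to the right.

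The largest rises were of genes at or near 0 in controls. The nonagouti gene a (chr2:154950599-155051012), which encodes the agouti signalling protein of the hair follicle, had 0.0936, 0.462 and 0 CPM in the controls and 53.1, 48.9 and 44.3 CPM in the knockout-labelled libraries (log2 fold 7.92 ± 0.52 SE, adjusted p = 3.76e-05). Its 3 knockout-labelled libraries lay close together. Cartpt (chr13:99898483-99910179), a neuropeptide precursor, had 0, 0.277 and 0.101 CPM in the controls and 80.3, 24.3 and 15.3 CPM in the knockout-labelled libraries (log2 fold 8.17 ± 0.99 SE, adjusted p = 0.00312). Pcp4, a calmodulin-binding protein, had 0.749, 0.832 and 2.31 CPM in the controls and 42.7, 74.6 and 178 CPM in the knockout-labelled libraries (log2 fold 6.25 ± 0.90 SE, adjusted p = 0.00693). Il1rl1 (chr1:40404864-40465418), the receptor for the alarmin interleukin 33, had 2.43, 1.66 and 8.35 CPM in the controls and 122, 763 and 1040 CPM in the knockout-labelled libraries (log2 fold 7.28 ± 1.07 SE, adjusted p = 0.00744). Knockout replicate 1 was the lowest of its group for Pcp4 and Il1rl1 and the highest for Cartpt, and no group overlapped. These 4 calls held with any 1 luminal library left out.

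Several rises rested on controls with 0 to 3 counts in all, and for those the ratio of summed counts per library total is given in place of the fitted fold. Fmn2, a formin that nucleates actin filaments, was higher by a ratio of 73.9 (95% counting interval 12.9 to 2950), and the adhesion gene Cntnap4 by 56.9 (95% counting interval 15.4 to 475). Slc5a11, a sodium and myo-inositol cotransporter, was higher by 229 (95% counting interval 63.2 to 1900). Efcab1, a calcium-binding protein of cilia, had no count in 3 controls and 0.898, 2.68 and 3.07 CPM in the knockout-labelled libraries, so it was at least 24.6-fold higher, taking 3 counts over the control group as the floor. Their adjusted p values were 0.00158, 0.00387, 0.0147 and 0.0115. The intervals cover counting error only. Ivl, which encodes involucrin of the cornified envelope, had 0, 0 and 1.61 CPM in the controls and 4.79, 45.5 and 52.3 CPM in the knockout-labelled libraries (log2 fold 6.01 ± 1.31 SE, adjusted p = 0.0324). Asic2, an acid-sensing ion channel, had a log2 fold of 5.83 ± 0.93 (adjusted p = 0.00903), and Aoc1, a diamine oxidase, 5.46 ± 1.10 (adjusted p = 0.023). With 1 library left out, the test no longer called Slc5a11 without control 1 or 2 (0.063 to 0.0719), Ivl without control 1 or 2 or knockout 2 or 3 (0.095 to 0.125), Asic2 without control 2 (0.052) and Aoc1 without control 1 or 2 or knockout 2 or 3 (0.0622 to 0.114).

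Counted by absolute change of the mean level, the rises were led by secreted and enzyme genes. Tgm2 (chr2:158116405-158146392), tissue transglutaminase, which cross-links proteins, had 330.2, 314 and 635 CPM in the controls and 1114, 4532 and 6913 CPM in the knockout-labelled libraries (log2 fold 3.29 ± 0.58 SE, adjusted p = 0.0143). The lowest knockout-labelled library was above the highest control, with a wide spread above it. Ido1 (chr8:24584133-24596952), the interferon-inducible enzyme that degrades tryptophan, had 35.4, 30.3 and 107 CPM in the controls and 599, 1598 and 1472 CPM in the knockout-labelled libraries (log2 fold 4.41 ± 0.82 SE, adjusted p = 0.0171). Plau, the urokinase plasminogen activator, had 90.4, 28.9 and 172 CPM in the controls and 579.7, 526 and 1179.7 CPM in the knockout-labelled libraries (log2 fold 2.97 ± 0.63 SE, adjusted p = 0.0278). Gng12, a G protein gamma subunit, had 182, 163 and 368 CPM in the controls and 685, 997 and 1445 CPM in the knockout-labelled libraries (log2 fold 2.13 ± 0.34 SE, adjusted p = 0.00903). In the other direction Ptn, the heparin-binding growth factor pleiotrophin, had 655, 274 and 883 CPM in the controls and 97.7, 88.6 and 167 CPM in the knockout-labelled libraries (log2 fold -2.36 ± 0.43 SE, adjusted p = 0.016). Control replicate 3 was the highest control for each of the 5 genes. All 5 calls hung on single libraries. The adjusted p passed 0.05 for Tgm2 without control 1 or 2 (0.0684 to 0.0729), Ido1 without control 1 or 2 or knockout 2 or 3 (0.0543 to 0.0847) and Plau without control 1 or 2 or knockout 2 or 3 (0.0578 to 0.118). The same was true of Gng12 without control 1 (0.0533) and of Ptn without control 1 or knockout 2 (0.0558 to 0.0723).

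Among milk genes 2 caseins fell far, and 13 of the 15 tested had a negative log2 fold. Of 17 milk protein and milk fat globule genes 15 could be tested (Csn1s2b and Wap could not). Of the 15, 2 fell, beside 0.819% of all tested genes, and none rose. Their median log2 fold was -1.19, beside -0.028 over all tested genes. The groups did not overlap for 7 of the 15, each lower in the knockout-labelled libraries, against 12.3% of all tested genes. Csn1s1 (chr5:87666208-87682578), alpha-s1 casein, had 52.7, 85.4 and 42.6 CPM in the controls and 0.598, 0.805 and 1.13 CPM in the knockout-labelled libraries (log2 fold -6.10 ± 0.44 SE, adjusted p = 5.91e-05). Its neighbour Csn2 (chr5:87692619-87699429), beta casein, had 13.2, 15.6 and 6.64 CPM in the controls and 0.598, 0 and 0.2 CPM in the knockout-labelled libraries (log2 fold -5.47 ± 0.75 SE, adjusted p = 0.00504). Both calls held with any 1 luminal library left out, and for both genes every control stood far above every knockout-labelled library. Csn1s1 was also called lower in basal cells (log2 fold -3.41 ± 0.57 SE, adjusted p = 0.0255). Csn3, kappa casein and the most abundant of the caseins here, was named after its values were seen and had 705, 499 and 905 CPM in the controls and 141, 146 and 458 CPM in the knockout-labelled libraries; it did not pass the test (log2 fold -1.50 ± 0.62 SE, adjusted p = 0.234). Muc1, the apical mucin, had a log2 fold of -1.19 ± 0.36 and an adjusted p = 0.108, and 0.0217 with the replicate block. The summed level of the milk list was 3382 to 4588 CPM in controls and 1652 to 2505 CPM in knockout-labelled libraries.

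Casein genes are classic targets of prolactin, which acts through the transcription factor STAT5. The promoters of the 2 caseins that fell are shown because both hold the letters TTCNNNGAA, a STAT-type motif, which are given in capitals. The 250 bases before each start site are from RefSeq on GRCm38.p6, read 5′ to 3′ on the gene's strand.
Csn1s1 promoter, chr5:87665958-87666207, + strand: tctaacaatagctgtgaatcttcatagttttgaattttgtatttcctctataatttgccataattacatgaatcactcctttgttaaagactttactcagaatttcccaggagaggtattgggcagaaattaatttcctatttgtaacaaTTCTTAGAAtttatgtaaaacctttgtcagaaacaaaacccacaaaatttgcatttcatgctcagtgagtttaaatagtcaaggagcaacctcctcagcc
Csn2 promoter, chr5:87699426-87699675, - strand: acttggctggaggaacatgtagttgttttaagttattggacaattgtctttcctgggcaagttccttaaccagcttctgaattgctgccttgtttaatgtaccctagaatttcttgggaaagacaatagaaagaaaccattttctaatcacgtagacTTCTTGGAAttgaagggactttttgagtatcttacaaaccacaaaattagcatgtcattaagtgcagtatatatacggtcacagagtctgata
The match begins 100 bases before the start in Csn1s1 and 93 bases before it in Csn2. Searched on both strands, the motif was in 3 of 12 tested milk genes with a window, in 7.31% of the 11360 tested genes with one and in 8.13% of all 27025. The match is a description of the letters and not a measured site. Of 15 prolactin and STAT5 signalling genes 1 changed, or 2 with the replicate block, both higher. Over all tested genes 2.21% were higher, or 4.65% with the block. Cav1, caveolin 1, which restrains prolactin signalling in the gland, had 38.5, 28 and 96.8 CPM in the controls and 177, 531 and 232 CPM in the knockout-labelled libraries and rose (log2 fold 2.52 ± 0.53 SE, adjusted p = 0.028). Without control 1 or 2 or knockout 2 or 3 that call was lost (0.0574 to 0.119). Prlr, the prolactin receptor, had 1095, 745 and 1286 CPM in the controls and 1644, 2748 and 2067 CPM in the knockout-labelled libraries, without overlap but short of the threshold (log2 fold 1.05 ± 0.39 SE, adjusted p = 0.185). Stat5a had a log2 fold of -0.07 ± 0.33 (adjusted p = 0.948), with a sign that turned without knockout replicate 1.

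Hormone-sensing genes moved in both directions. Of 21 such markers 19 were tested, and 2 rose and 3 fell, with a median log2 fold of 0.65. Over all tested genes 2.21% rose and 0.819% fell, with a median of -0.028. Tnfsf11 (chr14:78277446-78308043), which encodes RANKL, the signal that hormone-sensing cells send to their neighbours, had 29.3, 36.9 and 13.6 CPM in the controls and 1.1, 0.626 and 0.4 CPM in the knockout-labelled libraries (log2 fold -5.25 ± 0.63 SE, adjusted p = 0.00291). Cited1 (chrX:102247378-102252181), a transcriptional coregulator of oestrogen-responsive cells, had 199, 129.6 and 79.9 CPM in the controls and 17.8, 26.9 and 13.7 CPM in the knockout-labelled libraries (log2 fold -2.81 ± 0.36 SE, adjusted p = 0.00321). Both calls held with any 1 luminal library left out. The third fall was Fgb, given above. Sytl2, a synaptotagmin-like vesicle protein, rose (log2 fold 2.08 ± 0.45 SE, adjusted p = 0.0324), as did Fxyd2, a regulator of the sodium pump (log2 fold 1.97 ± 0.38 SE, adjusted p = 0.0193), which was named because it completes the count. The receptors did not pass the test. Esr1 had 61.8, 32.6 and 45.1 CPM in the controls and 75.7, 123 and 104 CPM in the knockout-labelled libraries (log2 fold 1.12 ± 0.72 SE, adjusted p = 0.474), and Pgr had 37.2, 36.1 and 132 CPM in the controls and 84.4, 242 and 345 CPM in the knockout-labelled libraries (log2 fold 1.71 ± 0.58 SE, adjusted p = 0.146). For Esr1 the knockout-labelled libraries were the higher 3 of the 6, and for Pgr the groups overlapped.

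Among 20 tested genes known to respond to oestrogen or progesterone, 1 rose and 2 fell, beside 2.21% and 0.819% of all tested genes. With the replicate block 4 fell, beside 2.71%. The falls were Tnfsf11 and Cited1. The rise was Greb1, an oestrogen-induced coactivator, with 1.03, 0.647 and 3.42 CPM in the controls and 17.4, 47.1 and 119.6 CPM in the knockout-labelled libraries (log2 fold 5.18 ± 1.25 SE, adjusted p = 0.05). Its 3 knockout-labelled libraries were all above the controls and spread widely. With 1 library left out the call was lost for Greb1 without control 1, 2 or 3 or knockout 2 or 3 (0.0642 to 0.191), for Sytl2 without control 1, 2 or 3 or knockout 2 or 3 (0.0576 to 0.137) and for Fxyd2 without control 1 or 2 or knockout 2 or 3 (0.0578 to 0.0933). In bulk libraries such as these, a lower level from fewer cells of a type and a lower level per cell cannot be told apart. The 4 hormone-sensing markers used to check the sample (Esr1, Pgr, Foxa1 and Prlr) summed to 940.4 to 1590.3 CPM in controls and 2037 to 3403 CPM in knockout-labelled libraries. The 4 progenitor markers (Kit, Elf5, Aldh1a3 and Cd14) summed to 1303 to 1718 CPM and 838 to 1037 CPM. Singly, Kit, Elf5 and Aldh1a3 overlapped between the groups. So did the sum of the full list of 20 progenitor markers, at 5017 to 6604 CPM in controls and 4277 to 5850 CPM in knockout-labelled libraries. The part of these cell types in the results on hormone and milk genes was not tested.

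Luminal progenitor markers had a median log2 fold of -0.79 over 20 tested members, 2 falls and no rise, or 3 falls and 2 rises with the replicate block. Of all tested genes 0.819% fell and 2.21% rose, or 2.71% and 4.65% with the block. Rspo1 (chr4:124986401-125009102), the secreted Wnt amplifier R-spondin 1, had 110.1, 246 and 22.6 CPM in the controls and 18.6, 5.55 and 5.14 CPM in the knockout-labelled libraries (log2 fold -3.70 ± 0.82 SE, adjusted p = 0.0357). Sox10, a transcription factor of progenitors, had 215, 223 and 155 CPM in the controls and 91.2, 79.1 and 117 CPM in the knockout-labelled libraries (log2 fold -1.05 ± 0.25 SE, adjusted p = 0.0499). Controls spread widely for Rspo1 and little for Sox10. Elf5, the transcription factor that directs alveolar fate, had 144, 271 and 90.7 CPM in the controls and 98.8, 102 and 68.6 CPM in the knockout-labelled libraries and did not pass (log2 fold -0.91 ± 0.45 SE, adjusted p = 0.334). None of 16 pan-luminal markers passed, with a median log2 fold of 0.21, and with the replicate block Muc1 fell. Krt8 had a log2 fold of 0.29 ± 0.30 (adjusted p = 0.687), Krt18 of 0.49 ± 0.29 (0.437) and Krt19 of 0.60 ± 0.31 (0.35).

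Of 23 tested basal and myoepithelial markers 4 rose within the luminal libraries, beside 2.21% of all tested genes. The list's median log2 fold was 0.22. Trp63 (chr16:25683763-25892088), the p63 transcription factor that maintains basal cells, had 4.96, 2.03 and 15.7 CPM in the controls and 27.5, 71.8 and 58.5 CPM in the knockout-labelled libraries (log2 fold 2.80 ± 0.58 SE, adjusted p = 0.0253). Cdh3, P-cadherin, had 5.15, 2.96 and 8.75 CPM in the controls and 21.8, 35.8 and 71 CPM in the knockout-labelled libraries (log2 fold 2.94 ± 0.44 SE, adjusted p = 0.00752). Dkk3, a secreted Dickkopf-family protein, had 5.61, 6.2 and 3.22 CPM in the controls and 19.1, 47.9 and 37.8 CPM in the knockout-labelled libraries (log2 fold 2.80 ± 0.35 SE, adjusted p = 0.00321). Col17a1, a hemidesmosome collagen, rose by a log2 fold of 2.0 ± 0.47 (adjusted p = 0.0466), with groups that touched at 17.5 CPM. The other 19 did not pass, though for 3 of them, Jag2, Itgb4 and Lamb3, every knockout-labelled library lay above every control, and for Tagln and Egfr every one lay below. Over all tested genes 13.1% lay wholly higher and 12.3% wholly lower, so these counts single out nothing about basal markers. Krt14 had 56.9, 36.3 and 282 CPM in the controls and 208, 393 and 386 CPM in the knockout-labelled libraries (log2 fold 1.40 ± 0.65 SE, adjusted p = 0.298), and it passed in 1 of the 6 fits with a luminal library left out, that without control replicate 3 (adjusted p = 0.013). Krt5 ranged from 12.8 to 321 CPM within the controls alone, with a log2 fold of 0.22 ± 0.99 (adjusted p = 0.943) whose sign turned without control replicate 1, control replicate 2 or knockout replicate 2. The contractile genes Acta2 and Myh11 were at 12.3 to 23.8 and 6.18 to 18.9 CPM in controls and at 11.5 to 17.3 and 6.88 to 9.93 CPM in knockout-labelled libraries. With the replicate block 3 basal markers fell, beside 2.71% of all tested genes, and 4 rose, beside 4.65%. The calls of Cdh3 and Dkk3 held with any 1 luminal library left out. Among these luminal and basal genes the call was lost for Rspo1 without control 1 or 2 or knockout 2 or 3 (0.082 to 0.141), for Sox10 without control 1 or 2 or knockout 1, 2 or 3 (0.0774 to 0.184), for Trp63 without control 1 or 2 or knockout 2 or 3 (0.0631 to 0.118) and for Col17a1 without control 1 or 2 or knockout 2 or 3 (0.108 to 0.175).

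Interferon response genes were the list with the highest median log2 fold among those with 10 or more tested members. All 32 members were tested. The median was 1.01, 31 of 32 had a positive log2 fold, and the groups did not overlap for 21, each higher in the knockout-labelled libraries, against 13.1% of all tested genes. The test called 5 higher, beside 2.21% of all tested genes, and none lower. With the replicate block it called 15 higher, beside 4.65% of all tested genes under that fit. Usp18 (chr6:121245906-121270917), the protease that removes ISG15 and damps interferon signalling, had 7.2, 4.81 and 9.25 CPM in the controls and 35.5, 39.4 and 49.2 CPM in the knockout-labelled libraries (log2 fold 2.54 ± 0.33 SE, adjusted p = 0.00349). Xaf1, an inhibitor of XIAP, had 6.92, 5.46 and 7.34 CPM in the controls and 18.2, 11.8 and 25.4 CPM in the knockout-labelled libraries (log2 fold 1.49 ± 0.30 SE, adjusted p = 0.0233). Cxcl10, a chemokine for T cells, had 17.6, 41.4 and 20.6 CPM in the controls and 51.4, 73 and 88.8 CPM in the knockout-labelled libraries (log2 fold 1.42 ± 0.32 SE, adjusted p = 0.0399). Gbp2, a guanylate-binding GTPase, had 30.5, 28.1 and 46.6 CPM in the controls and 79.2, 63.5 and 131 CPM in the knockout-labelled libraries (log2 fold 1.38 ± 0.31 SE, adjusted p = 0.0402). In all 4 every knockout-labelled library lay above every control. The other, Bst2, fell outside the rule for named genes and completes the count. It encodes tetherin and had 37.8, 43 and 26.9 CPM in the controls and 60.1, 82 and 79.7 CPM in the knockout-labelled libraries (log2 fold 1.04 ± 0.21 SE, adjusted p = 0.0223). The summed level of the list was 899.7 to 945 CPM in controls and 1391 to 1755 CPM in knockout-labelled libraries. In basal cells the list's median log2 fold was 0.79 and 1 member was called higher. Of all tested genes 0.671% were called in basal cells, in either direction. Usp18 held with any 1 luminal library left out, and the count of 5 went down to 1 without control replicate 1 or knockout replicate 3. Left below the threshold were Xaf1 without control 1 or 2 or knockout 1 or 3 (0.0532 to 0.109), Cxcl10 without control 1 or 3 or knockout 2 or 3 (0.0757 to 0.137), Gbp2 without control 1 or 2 or knockout 1, 2 or 3 (0.0521 to 0.161) and Bst2 without control 1 or knockout 2 or 3 (0.0697 to 0.095).

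The promoters of 3 of the called genes are shown with their matches to the core of an interferon-stimulated response element in capitals. The window and build are those used for the caseins.
Bst2 promoter, chr8:71537473-71537722, - strand: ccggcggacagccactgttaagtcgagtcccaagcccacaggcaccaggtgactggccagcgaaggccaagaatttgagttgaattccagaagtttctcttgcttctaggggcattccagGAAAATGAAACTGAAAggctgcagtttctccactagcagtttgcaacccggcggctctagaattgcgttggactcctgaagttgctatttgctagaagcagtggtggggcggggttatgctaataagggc
Cxcl10 promoter, chr5:92348890-92349139, - strand: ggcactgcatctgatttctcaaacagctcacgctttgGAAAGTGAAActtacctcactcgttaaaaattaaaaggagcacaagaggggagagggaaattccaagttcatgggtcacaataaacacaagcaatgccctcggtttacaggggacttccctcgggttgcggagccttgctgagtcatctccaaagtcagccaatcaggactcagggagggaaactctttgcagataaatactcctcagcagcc
Gbp2 promoter, chr3:142620413-142620662, + strand: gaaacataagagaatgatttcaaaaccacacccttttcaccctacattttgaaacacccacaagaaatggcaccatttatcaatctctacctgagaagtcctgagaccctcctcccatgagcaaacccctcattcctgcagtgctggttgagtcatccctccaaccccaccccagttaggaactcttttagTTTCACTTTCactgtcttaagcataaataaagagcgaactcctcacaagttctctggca
Bst2 held 2 overlapping matches, which begin 130 and 124 bases before the start. Cxcl10 held 1 at 213 bases, and Gbp2 held 1 on the opposite strand at 59 bases. Searched on both strands, the element was in 13 of the 23 tested interferon genes with a window (56.5%), against 3.13% of tested genes and 3.46% of all genes with one. The Xaf1 window held none, and for Usp18 no window was in the table.

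**Figure D3:**
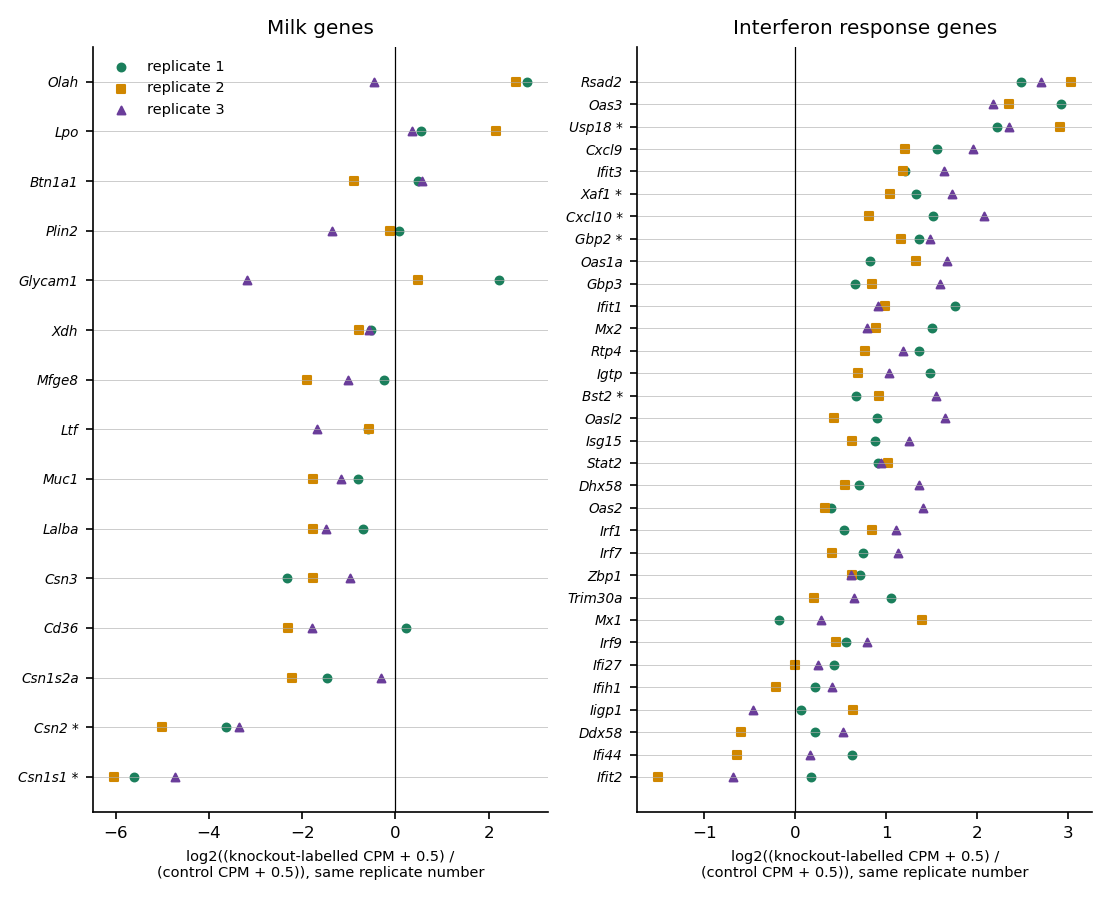
Log2 ratio of knockout-labelled to control CPM within same-numbered luminal libraries, after adding 0.5 CPM to each, for the 15 tested milk genes (left) and the 32 interferon response genes (right); circles, squares and triangles are replicates 1, 2 and 3, and an asterisk marks genes that passed the test. Csn1s1 and Csn2 lie far to the left in all 3 pairs, and most interferon genes lie to the right of 0 in all 3.

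Antigen presentation genes, many of which interferon induces, had no call among 22 tested, with a median log2 fold of 0.45. The lowest p values were those of Tapbp, the peptide-loading chaperone tapasin, with a log2 fold of 0.68 ± 0.17 (adjusted p = 0.0625), and of the class II gene H2-Ab1, which went the other way with -1.73 ± 0.48 (adjusted p = 0.0815). With the replicate block both passed (0.0368 and 0.0319), in a count of 2 higher and 2 lower, beside 4.65% and 2.71% of all tested genes. Of 30 tested interleukin 1 family, NF-kB, chemokine and acute phase genes 2 rose, Il1rl1 and Saa1, beside 2.21% of all tested genes. Saa1, serum amyloid A, had 0, 0.832 and 0.704 CPM in the controls and 5.98, 7.07 and 3.27 CPM in the knockout-labelled libraries (log2 fold 3.38 ± 0.78 SE, adjusted p = 0.0422), and its call was lost on leaving out any 1 of the 6 luminal libraries (0.0581 to 0.134).

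Salivary secretory transcripts had 7 rises and 1 fall among 22 tested (7 and 2 with the replicate block). That was the highest share called of any list (36.4%, beside 3.03% of all tested genes without the block and 7.36% with it). Prh1 (chr6:132569842-132572401), a proline-rich salivary protein, had 0.187, 0.0925 and 0.101 CPM in the controls and 28.4, 116 and 105 CPM in the knockout-labelled libraries (log2 fold 9.23 ± 1.40 SE, adjusted p = 0.00788). Its neighbour Prp2 was higher by a ratio of 851 (95% counting interval 152 to 33600) (adjusted p = 0.0147), since the controls held 1 count. The secretoglobin Scgb2b26 was higher by 347 (95% counting interval 61.9 to 13700) (adjusted p = 0.00959). Scgb1b27 had 104, 55.3 and 211 CPM in the controls and 5124, 716 and 2319 CPM in the knockout-labelled libraries (log2 fold 4.46 ± 0.97 SE, adjusted p = 0.0324), and Scgb2b27 had 117, 49.8 and 201 CPM in the controls and 4648, 645 and 2051 CPM in the knockout-labelled libraries (log2 fold 4.32 ± 1.01 SE, adjusted p = 0.0458). The major urinary protein gene Mup5 had 27, 7.31 and 19.1 CPM in the controls and 2440.5, 671 and 841 CPM in the knockout-labelled libraries (log2 fold 6.21 ± 1.17 SE, adjusted p = 0.0181). Prol1, a proline-rich gene named to complete the count, rose as well (log2 fold 3.61 ± 0.78 SE, adjusted p = 0.031). The single fall was Smr3a, which was also the list's 1 call in basal cells, where 0.671% of all tested genes were called. The list's median log2 fold was 0.73 in luminal and 1.11 in basal cells. The most abundant transcript of the list did not separate the groups: Bpifa2 had 61937, 5745 and 31544 CPM in controls and 66894, 17962 and 16605 CPM in knockout-labelled libraries. Levels of the whole list thus overlapped, at 12281 to 129665 CPM in controls and 29086 to 111880 CPM in knockout-labelled libraries, and the part of this overlap in the 8 calls was not tested. Mup, Scgb and proline-rich genes form families of near-identical copies, so the split of reads among them is uncertain. Without control replicate 1 or control replicate 2 the count of 7 went down to 1. No call remained of Prp2 without control 1 or 2 (0.0746), Scgb2b26 without control 1 or 2 (0.052 to 0.0533) or Mup5 without control 1 or 2 (0.0684 to 0.0863). Nor did one remain of Scgb1b27 without control 1 or 2 or knockout 1 or 3 (0.0734 to 0.138), Prol1 without control 1 or 2 or knockout 1, 2 or 3 (0.0532 to 0.106) or, on leaving out any 1 of the 6 libraries, Scgb2b27 (0.0547 to 0.169).

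Wnt, R-spondin and RANK signalling genes had 3 falls and 1 rise among 34 tested, or 7 falls and 1 rise with the replicate block. For this list and the next, the shares over all tested genes were 0.819% lower and 2.21% higher, or 2.71% and 4.65% with the block. Beside Tnfsf11 and Rspo1, Wnt5b, a noncanonical Wnt ligand, fell. Its level was 121, 169.7 and 221 CPM in the controls and 61.3, 41.3 and 66.2 CPM in the knockout-labelled libraries (log2 fold -1.60 ± 0.29 SE, adjusted p = 0.0158), with no overlap. The rise was Dkk3. In the axon guidance list 3 of 36 rose and 3 fell, or 4 and 5 with the block. Robo2 (chr16:73891976-75447443), a Slit receptor, had 1.5, 0.74 and 1.11 CPM in the controls and 19.4, 28.5 and 22.4 CPM in the knockout-labelled libraries (log2 fold 4.38 ± 0.44 SE, adjusted p = 0.000812), and that call held with any 1 luminal library left out. Its neighbour and relative Robo1 had a log2 fold of 0.95 ± 0.23 (adjusted p = 0.0494) and the semaphorin gene Sema5a of 2.11 ± 0.40 (adjusted p = 0.0189). The falls were those of Ntn1, netrin 1 (176, 217 and 137 CPM in the controls and 96.5, 89.9 and 62.7 CPM in the knockout-labelled libraries; log2 fold -1.09 ± 0.23 SE, adjusted p = 0.0274), the ephrin gene Efna5 (log2 fold -1.23 ± 0.25 SE, adjusted p = 0.0241) and the ephrin receptor gene Ephb4 (log2 fold -0.94 ± 0.18 SE, adjusted p = 0.0193). Robo1 and Ephb4 were named to complete the count. With 1 library left out the call was lost for Wnt5b without control 2 or knockout 2 (0.0535 to 0.0648), for Robo1 without control 2 or 3 or knockout 1, 2 or 3 (0.0824 to 0.176) and for Sema5a without control 1 or 2 or knockout 2 or 3 (0.0687 to 0.0911). Likewise it was lost for Ntn1 without control 1 or 2 or knockout 2 or 3 (0.0819 to 0.118), for Efna5 without control 1 or 2 or knockout 2 or 3 (0.0723 to 0.105) and for Ephb4 without control 2 or knockout 1, 2 or 3 (0.0528 to 0.0879).

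In the matrix list, 3 of 41 collagen, laminin and related genes fell and 1 rose, with a median log2 fold of -0.29. With the replicate block 3 fell and 3 rose. The shares over all tested genes were 0.819% lower and 2.21% higher, or 2.71% and 4.65% with the block. Col8a1 was joined by its partner chain Col8a2, with 7.77, 7.86 and 7.64 CPM in the controls and 1.3, 1.43 and 2.14 CPM in the knockout-labelled libraries (log2 fold -2.24 ± 0.43 SE, adjusted p = 0.0187), and by the fibril-associated Col12a1 (log2 fold -1.31 ± 0.28 SE, adjusted p = 0.032), and the rise was Col17a1. In other signalling lists single members passed, shares of 3.45% to 6.25% of the genes tested beside 3.03% of all genes. Jag1, a Notch ligand, had 30.0, 28.1 and 42.8 CPM in the controls and 81.3, 100.8 and 115 CPM in the knockout-labelled libraries and rose (log2 fold 1.56 ± 0.30 SE, adjusted p = 0.0193), as 1 of 20 Notch genes. Bmp3, an atypical bone morphogenetic protein, had 1.96, 2.22 and 12 CPM in the controls and 42.1, 45.7 and 68.1 CPM in the knockout-labelled libraries and rose (log2 fold 3.28 ± 0.63 SE, adjusted p = 0.0193), as 1 of 29. Nrg2, a neuregulin, rose (log2 fold 1.92 ± 0.46 SE, adjusted p = 0.0494), as 1 of 21 EGF and ErbB genes, of which 2 rose and 2 fell with the replicate block. Igf2 was the 1 of 16 IGF and insulin genes that changed, and with the replicate block 2 fell and 1 rose. Nqo1, a quinone reductase and classic NRF2 target, had 12.8, 17.1 and 12.2 CPM in the controls and 35.9, 35.3 and 28.6 CPM in the knockout-labelled libraries and rose (log2 fold 1.24 ± 0.23 SE, adjusted p = 0.0181), as 1 of 20 antioxidant genes, or 1 of 3 with the replicate block. Junction genes had 1 rise among 30, Cdh3, or 4 with the block, and cornified envelope and stratified keratin genes 1 among 24, Ivl, or 2 with it. Luminal and epithelial transcription regulators had 1 fall among 30, Sox10, and the 3 Foxp genes tested had 1 rise, Foxp1. Calls were lost here for Col8a2 without control 1 or 2 or knockout 1 or 2 (0.0588 to 0.0834), Col12a1 without control 1, 2 or 3 or knockout 2 or 3 (0.0651 to 0.122) and Jag1 without control 1 or 2 or knockout 2 or 3 (0.0662 to 0.0952). Further calls lost were those of Bmp3 without control 1 or 2 or knockout 2 or 3 (0.0575 to 0.08), Nqo1 without control 1 or knockout 2 (0.068 to 0.0707) and, on leaving out any 1 library, Nrg2 (0.0714 to 0.188).

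Several programmes had no call. None of 34 S phase and mitosis genes passed, with a median log2 fold of -0.13. Mki67, the proliferation marker, had 76.8, 150.5 and 20.9 CPM in the controls and 82.9, 76.4 and 24.2 CPM in the knockout-labelled libraries (log2 fold -0.44 ± 0.74 SE, adjusted p = 0.822), and its sign turned without control replicate 2. Cyclin D, CDK inhibitor and Rb family genes gave no call among 18, lipid genes none among 29, or 3 falls with the replicate block (Thrsp at 0.0375 and Fabp4 at 0.0221 among them), and immediate early and heat shock genes none among 24, with a median log2 fold of -0.53. In the stem cell list of 15 tested genes the only call was Foxp1 itself, or Foxp1 and 3 falls with the block. Shares over all tested genes were 0.819% lower and 2.21% higher, or 2.71% and 4.65% with the block. Tspan8, a tetraspanin used to mark quiescent stem cells, had a log2 fold of 0.19 ± 0.35 (adjusted p = 0.837).

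Markers of other cell types were mostly low and gave 1 call. Of all tested genes 2.21% rose and 0.819% fell, or 4.65% and 2.71% with the replicate block. Fibroblast genes had 1 rise among 16 tested and a median log2 fold of -0.43. The rise was Ly6c1, a Ly6-family surface protein also found on endothelial and immune cells, with 4.58, 14.6 and 11.3 CPM in the controls and 108, 86.8 and 44.8 CPM in the knockout-labelled libraries (log2 fold 2.97 ± 0.46 SE, adjusted p = 0.00817). The list summed to 85.5 to 457 CPM in controls and 242 to 483 CPM in knockout-labelled libraries. Pericyte genes had no call among 8. Endothelial genes had none, or 3 falls with the block (Esam at 0.0217 among them), and a median of -1.23 over 14. Pecam1, an endothelial adhesion molecule, had 8.33, 20.5 and 37 CPM in the controls and 7.58, 7.96 and 10.5 CPM in the knockout-labelled libraries, highest in control replicate 3. Macrophage, lymphocyte, mast cell, adipocyte and red cell lists had 4, 4, 2, 3 and 1 tested members and no call. With the block Csf1r of the macrophage list rose (adjusted p = 0.00376), and Hdc of the mast cell list (0.0499) and Fabp4 of the adipocyte list fell. Their part in the results above was not tested.

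**Figure D4:**
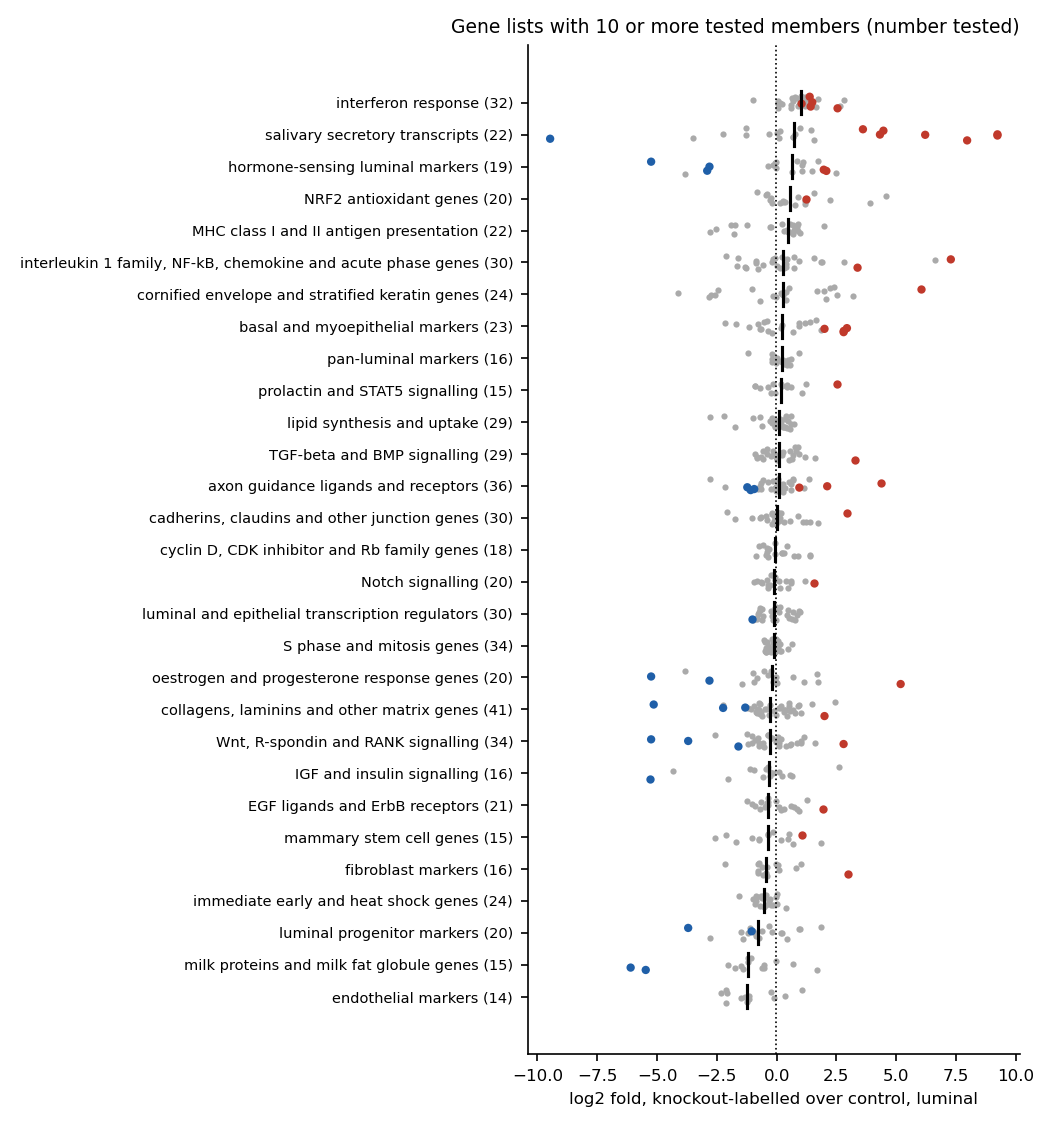
Log2 fold of knockout-labelled over control luminal libraries (horizontal axis) for the tested members of each gene list with 10 or more tested members (number in brackets); each point is a gene, red if called higher, blue if called lower and grey otherwise, black ticks are list medians and the dotted line is the median of all tested genes. Interferon response genes have the highest median (1.01), and endothelial and milk genes the lowest (-1.23 and -1.19).

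By position, 450 of the 451 called genes could be placed. Over the autosomes and X the share of tested genes called ranged from 1.6% on chromosome 17 to 5.3% on chromosome 18. Some 64 of the called genes stood in 29 runs of 2 or more neighbours among the tested genes. These included the major urinary protein genes on chromosome 4, the secretoglobins on chromosome 7, the caseins on chromosome 5, and Il1rl1 with Il18r1 on chromosome 1. How many runs as many genes placed at random would give was not worked out, so the count does not show clustering. A forkhead motif, TGTTTAC, searched on both strands of the 250-base windows, was in 10 of 242 rises (4.13%), 1 of 95 falls (1.05%), 2.68% of tested genes and 3.54% of all genes with a window.

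The luminal log2 folds of knockout-labelled over control libraries were then set against those in basal cells, in the same fit. The difference between the luminal and basal log2 folds passed for 41 genes (0.275% of those tested), 14 with a positive (0.0939%) and 27 with a negative difference (0.181%). The 2 folds had opposite signs for 35 of the 41, but a sign alone does not show a change in that cell type. Of the 41, 28 were called in luminal and 13 in basal cells. Some basal folds were within 1 SE of 0, as for Igf2 (0.04 ± 0.55). Col8a1 had the lowest p. It fell in luminal cells and was at 2.9, 2.68 and 2.31 CPM in basal controls and 4.66, 6.18 and 5.54 CPM in knockout-labelled basal libraries (basal log2 fold 1.05 ± 0.27, difference -6.19 ± 0.39 SE, adjusted p = 4.94e-05). Angpt1, the ligand of the endothelial TIE2 receptor, had 10.4, 18.7 and 8.55 CPM in the controls and 4.79, 3.31 and 2.87 CPM in the knockout-labelled libraries and fell in luminal cells (log2 fold -1.78 ± 0.34 SE, adjusted p = 0.0187). In basal cells it was at 2.39, 2.86 and 1.94 CPM in controls and 20.9, 33.6 and 29.7 CPM in knockout-labelled libraries and rose (log2 fold 3.54 ± 0.36, adjusted p = 0.00167, difference -5.33 ± 0.50 SE, adjusted p = 0.00184). Ntn1 too fell in luminal and rose in basal cells, from 8.4, 11.5 and 11.6 to 38.1, 37.7 and 28.4 CPM (basal adjusted p = 0.00933, difference -2.81 ± 0.33 SE, adjusted p = 0.00522).

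Robo2 went the other way, up in luminal cells and at 43, 43 and 15.3 CPM in basal controls and 17.5, 20.8 and 14.1 CPM in knockout-labelled basal libraries (difference 5.33 ± 0.57 SE, adjusted p = 0.00484). Cyfip2, a regulator of actin branching, had 0.936, 0.277 and 1.01 CPM in the controls and 24.9, 45.4 and 27.2 CPM in the knockout-labelled libraries and rose in luminal cells (log2 fold 5.44 ± 0.45 SE, adjusted p = 0.000194), while its basal log2 fold was 0.22 ± 0.39 (difference 5.22 ± 0.58 SE, adjusted p = 0.00522). Apcdd1, a membrane inhibitor of Wnt signalling, had 3.37, 3.51 and 4.32 CPM in the controls and 40.3, 58.9 and 73 CPM in the knockout-labelled libraries (log2 fold 3.94 ± 0.27 SE, adjusted p = 3.76e-05), and in basal cells a log2 fold of 1.06 ± 0.23 (difference 2.88 ± 0.34 SE, adjusted p = 0.00522). Adcy5, an adenylyl cyclase, had 11.6, 13.2 and 8.85 CPM in the controls and 1.6, 1.79 and 1.74 CPM in the knockout-labelled libraries (log2 fold -2.71 ± 0.35 SE, adjusted p = 0.00387; difference -4.20 ± 0.49 SE, adjusted p = 0.00522). Tmtc1, an O-mannosyltransferase, had 25, 17.2 and 11.9 CPM in the controls and 3.29, 3.22 and 3.34 CPM in the knockout-labelled libraries (log2 fold -2.45 ± 0.30 SE, adjusted p = 0.00314; difference -3.48 ± 0.41 SE, adjusted p = 0.00522). The differences of these 8 genes held with any 1 of the 12 libraries left out, and so did the luminal calls apart from Angpt1 without control 2 or knockout 2 or 3 (0.0729 to 0.0832) and Ntn1, given above. Of all tested genes 100 (0.671%) were called in basal cells. In both cell types 23 genes were called, and 20 of them moved the same way. Among those were Csn1s1, Smr3a, Nqo1, Cxcl10, Cntnap4, Sytl2, Nrg2, the gene a and Fmn2. For none of these did the difference between luminal and basal log2 folds pass. The gene a was at 166, 129 and 144 CPM in knockout-labelled basal libraries and at most 0.447 CPM in basal controls, and Fmn2 at 29.5, 21.7 and 26.3 CPM and at most 0.0924 CPM.

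**Figure D5:**
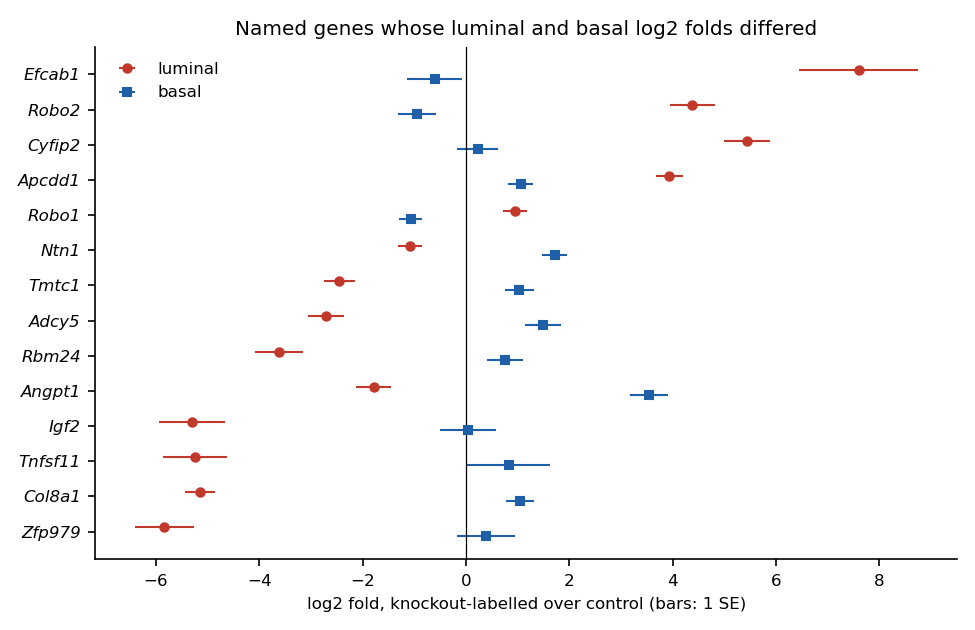
Log2 fold of knockout-labelled over control libraries, with bars of 1 SE, in luminal cells (red circles) and basal cells (blue squares) for the 14 named genes whose luminal and basal log2 folds differed. Angpt1 and Ntn1 lie on opposite sides of 0 with basal rises that passed the test, and Zfp979, Igf2 and Cyfip2 lie near 0 in basal cells.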

How the data were processed

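Total RNA of 12 mammary epithelial samples was sequenced with the TruSeq RNA v2 kit on a HiSeq 2000, per the labels' protocols. That kit does not mark strand. The authors deposited whole-number read counts per gene for 27179 genes, of which 859 had no symbol. The counts come from featureCounts, with CASAVA 1.8.2 and the build mm10, per the submitters' processing notes, and no source used here names the aligner. The series table and the sample files held the same values.

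Genes were kept by edgeR's filterByExpr (14903), scaled by TMM and tested with edgeR 4.0.16's robust quasi-likelihood fit on 4 group means over 12 libraries (8 residual degrees of freedom), with Benjamini-Hochberg adjustment over all tested genes. CPM uses TMM totals, and ± after a log2 fold is 1 standard error. Same-numbered luminal libraries deviated together from their group means (r = 0.36, 0.30 and 0.53, against -0.44 to 0.19 for the other combinations). With 3 libraries per group this does not settle that they were paired. The main fit leaves the replicate number out. A blocked value is given where it changes a call or moves a count by over 1.5 times. No 2 libraries of a group agreed within sampling noise. Alternatives were DESeq2, limma-voom, other scalings and filters, luminal libraries alone and leaving out each library. On simulated counts (14733 genes) 73 of 100 changes of 4-fold and 14 of 100 of 2-fold were called, with 8 false calls. The changed genes were drawn only from those well counted in luminal controls, and no replicate effect was simulated. Recovery among genes low in controls was thus not measured.

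Predicted or unnamed genes, 25 of them called, were left out of the rankings by fold, CPM difference and p. Named by rule were Foxp1, the 15 largest called rises and falls with groups apart and average log2 CPM from 1 up, the 10 largest called CPM differences, up to 4 called members per list (or the 2 with the lowest p), the 8 lowest p values of the luminal-basal difference and fixed lineage genes, 104 in all. Another 13, and 7 uncalled genes named because their groups did not overlap (Jag2, Itgb4, Lamb3, Tagln, Egfr, Rsph10b and Dnah1), were named after their values were seen. So was Frmd4b, for its blocked call near Foxp1. One gene is not reported here and was left out of its list. The 36 gene lists and the comparison were chosen with earlier results of these data known.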

Additional observations from a re-analysis of the deposited data

Results flagged for a closer look

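These results are given because the log2 fold of knockout-labelled over control libraries differed between luminal and basal cells. The difference itself was tested (edgeR's quasi-likelihood test, adjusted over all tested genes). Values are the luminal minus the basal log2 fold. The difference was -6.19 for Col8a1, -5.33 for Angpt1, 5.33 for Robo2, 5.22 for Cyfip2, -4.20 for Adcy5, -2.81 for Ntn1, 2.88 for Apcdd1 and -3.48 for Tmtc1, and these 8 held with any 1 of the 12 libraries left out. It was -6.24 for Zfp979, -4.37 for Rbm24, -5.34 for Igf2, -6.08 for Tnfsf11, 8.21 for Efcab1 and 2.02 for Robo1. Robo1 was named after its values were seen. The test no longer called Zfp979 without luminal knockout replicate 2 (adjusted p = 0.0569) or Rbm24 without luminal knockout replicate 2 or 3 (up to 0.0579). Igf2 and Robo1 were lost in 8 of the 12 such fits, those without luminal control 2, luminal knockout 2 or 3, or any basal library but control 3 (up to 0.088 and 0.0928). Tnfsf11 and Efcab1 were lost in 9, the same 8 and the fit without luminal control 1 (up to 0.147 and 0.123). With the replicate block Efcab1 had an adjusted p = 0.0537. Its fitted value rests on controls with no count and is not a bound. Groups of 3 libraries were not searched for outlying samples.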

How the results depend on the processing

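The luminal count of 451 stayed between 417 and 453 under DESeq2's size factors, library size alone, the salivary genes and Rn45s left out, either other filter, limma-voom and no robust dispersion. It was 1089 by DESeq2 (715 higher and 374 lower), 199 with luminal libraries only (159 and 40), 1097 with the replicate block and 1355 with the replicate block in luminal libraries only, and 127 to 589 on leaving out 1 luminal library. Rises made up 72.9% of the calls and 63.2% to 82.5% under the alternatives. The count of luminal-basal differences, 41, was 356 by DESeq2, 22 by limma-voom, 106 with the replicate block and 10 to 86 on leaving out 1 library, with 10 reached without luminal knockout replicate 2. Foxp1's log2 fold was 0.95 to 1.16 with 1 library left out. Signs turned with 1 library left out for genes that did not pass the test: Krt5 (-0.34 to 2.95, negative without control 1, control 2 or knockout 2 at -0.27, -0.31 and -0.34), Stat5a (-0.47 to 0.20, turned without knockout 1), Mki67 (-0.87 to 0.32, without control 2), Gata2 (-1.50 to 0.12, without control 3) and Pparg (-0.085 to 1.22, without knockout 3). No other named gene changed sign under any setting. Of 81 named calls 31 held with any 1 luminal library left out. The replicate block ended 1 named luminal call, Cyp1b1, and added 8 beside that of Frmd4b: Muc1, Tapbp, H2-Ab1, Thrsp, Fabp4, Esam, Csf1r and Hdc. With few reads in controls, low genes are limited by depth: 103 rises lay under 1 CPM there. The cause of these shifts was not tested.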

Other observations

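Of 39 tested genes in 3 families of motile cilium genes, which the lists did not hold, 13 rose in the knockout-labelled luminal libraries, beside 2.21% of all tested genes. The families were picked after their values were seen, by symbol, and no test of them as a group was made. Foxj1 encodes the forkhead factor that switches on motile cilium genes. It had 27.2, 21.3 and 18.7 CPM in the controls and 65.3, 134 and 88.4 CPM in the knockout-labelled libraries and rose (log2 fold 2.10 ± 0.39 SE, adjusted p = 0.0167, by edgeR). Of 12 tested axonemal dynein genes 3 rose, Dnah11, Dnah6 and Dnali1, with a median log2 fold of 1.09 over the 12. Dnah11, an outer-arm heavy chain, had 7.3, 3.24 and 5.93 CPM in the controls and 35.8, 70.0 and 107 CPM in the knockout-labelled libraries (log2 fold 3.69 ± 0.50 SE, adjusted p = 0.00481). Dnah6 and Dnali1, of the inner arms, had log2 folds of 3.21 ± 0.51 (adjusted p = 0.00928) and 3.15 ± 0.48 (adjusted p = 0.00817). Of 10 tested radial spoke, dynein regulatory complex and tektin genes 3 rose (median 1.02), among them Drc7 with 0.561, 0.277 and 0.302 CPM in the controls and 2.49, 10.8 and 11.3 CPM in the knockout-labelled libraries (log2 fold 4.40 ± 0.68 SE, adjusted p = 0.00823). Of 17 tested Cfap genes, which encode cilia and flagella associated proteins, 7 rose and 15 had a positive log2 fold (median 1.58). Cfap44 had 0.468, 0.185 and 0.704 CPM in the controls and 2.39, 8.68 and 11.1 CPM in the knockout-labelled libraries (log2 fold 4.01 ± 0.62 SE, adjusted p = 0.00817). For Foxj1, Dnah11, Drc7 and Cfap44 knockout replicate 1 was the lowest of its group and still above every control. None of the 39 passed the test as lower, but 8 had a negative log2 fold. For Rsph10b (-1.69 ± 0.51, adjusted p = 0.106) and Dnah1 (-0.75 ± 0.38, adjusted p = 0.339) every knockout-labelled library lay below every control.

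Of the families of the cilium that nearly all cells use, none of 14 tested intraflagellar transport genes and none of 8 Bardet-Biedl syndrome genes passed, with medians of 0.26 and 0.10 beside -0.028 over all tested genes. Positive log2 folds were found for 12 of the 14 and 5 of the 8, and 4 and 3 lay wholly higher, against 13.1% of all tested genes. The difference between these families and the 3 above was not tested. In basal cells none of the 39 passed, and the medians of the 3 families were -0.05, -0.002 and -0.19. The difference between luminal and basal folds did not pass for any of the 39, so these rises are not shown to be particular to luminal cells. The call was lost for Foxj1 without control 1 or 2 or knockout 2 (0.0533 to 0.0802) and for Dnah6 without control 1 (0.0533), while Dnah11, Dnali1, Drc7 and Cfap44 held with any 1 luminal library left out.

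Of the 3 fibrinogen chain genes 2 were tested, and both fell, beside 0.819% of all tested genes. Beside Fgb, Fgg, the gamma chain, had 407, 212 and 439 CPM in the controls and 68.9, 63.9 and 93.2 CPM in the knockout-labelled libraries (log2 fold -2.23 ± 0.38 SE, adjusted p = 0.0126) and was picked after its values were seen. The call was lost for Fgg without control 1 or knockout 2 (0.0524 to 0.0598).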
